A study of Mus musculus with 22 samples.

Results

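The genes described here are genes of the astrocyte endfoot and of gap junctions, and they include Gjd2, whose connexin serves electrical synapses between neurons. They were chosen by symbol, with earlier results of these data known, and all 9 members were found among the 55385 gene identifiers of the transcript index: Gja1 (ENSMUSG00000050953.10), Gjb6 (ENSMUSG00000040055.9), Gjd2 (ENSMUSG00000068615.4), Aqp4 (ENSMUSG00000024411.11), Mlc1 (ENSMUSG00000035805.13), Hepacam (ENSMUSG00000046240.8), Dag1 (ENSMUSG00000039952.15), Dtna (ENSMUSG00000024302.16) and Clcn2 (ENSMUSG00000022843.17). All 9 passed the filter on low counts and were among the 20524 genes tested. The expression of each gene is given in TPM, the length-corrected share of each transcript scaled to the same total in every library, summed over the gene's transcripts.

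An astrocyte endfoot is the expanded process with which an astrocyte covers a blood vessel or the brain surface. Water channels and potassium channels are anchored there by a dystrophin and dystroglycan complex that binds the laminin of the basement membrane, and a second complex of MLC1, GlialCAM and a chloride channel takes part in ion and volume balance. Gap junctions made of connexins join the cytoplasm of neighboring astrocytes into a network, whereas electrical synapses between neurons use another connexin, encoded by Gjd2.

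The data are ribosome-associated mRNA (RiboTag) from 6-week-old mice carrying 1 floxed allele of Rpl22 (Rpl22 Fl/+), which adds an HA tag to this ribosomal protein after Cre recombination. Every group thus shares the tagged allele, and the groups differ from each other in the Cre line, the tissue or both. The 6 groups, of 3 biological replicates each, were cortical astrocytes (labeled Aldh1-cre, a tamoxifen-inducible Aldh1l1 line in the methods), cortical microglia (Tmem119-cre, also tamoxifen-inducible), layer V neurons isolated from cortex with Rbp4-Cre, granule cells of the dentate gyrus isolated from hippocampus with the same Cre, cerebellar granule cells (Gabra6-Cre) and inhibitory interneurons isolated with Dlx6a-Cre from hippocampi pooled from 2 mice. Both sexes were used, and the interneuron pools held male and female tissue in 2 libraries. Where a replicate had been sequenced in both batches, the batch 1 library was used, and the 18 libraries held between 38270477 and 71440915 estimated counts. All interneuron and microglia libraries were from batch 2 and all others in the main comparison from batch 1, so batch cannot be told apart from cell type for those groups. In such bulk samples, fewer cells of a type and less RNA per cell cannot be told apart.

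The labels were checked against marker genes. The summed level of 8 astrocyte markers was 12488 to 13857 TPM in the astrocyte libraries and 61.2 to 346 TPM in the other 15 libraries, with no marker at 0 throughout a group. The markers did not sit at one shared level: in layer V neurons S100b was at 12.1% and Aldh1l1 at 7.92% of their astrocyte level, and Acsbg1 at 0.203%. The source of these reads was not tested. The interneuron libraries held 2454 to 2638 TPM of 5 oligodendrocyte markers, against 736 to 937 TPM in astrocytes and less elsewhere, and the microglia libraries held 269 to 398 TPM of 5 endothelial markers, against at most 57.8 TPM elsewhere. One astrocyte library, replicate 1, stood apart with 3635 TPM of the choroid plexus gene Ttr, against 4.99 and 11.6 TPM in the others. The 4 layer V markers did not set that group apart, since Etv1 was at 728 TPM in cerebellar granule cells against 82.5 TPM in layer V neurons, and Bcl11b was highest in the dentate gyrus, while Fezf2 was highest in layer V neurons at 85.5 TPM. A second layer V library of replicate 1, labeled male and not in the main comparison, had female-like levels of Xist (2.13 TPM) and Ddx3y (0.0340 TPM), as did its batch 1 partner labeled female.

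The promoters of 4 genes that were high together in astrocytes, and of Gjd2, which was high in interneurons, are printed here from RefSeq (GRCm38.p6), on the strand of the gene, from 250 bases before to 50 bases after the start site. The regions were chr10:56377050-56377349 (plus strand) for Gja1, chr14:57133562-57133861 (minus strand) for Gjb6, chr15:88978504-88978803 (minus strand) for Mlc1, chr9:37367356-37367655 (plus strand) for Hepacam and chr2:114013570-114013869 (minus strand) for Gjd2. Capitals mark matches, on either strand, to the nuclear factor I half-site TTGGCA, the SOX core ACAAT, the TATA box TATAAA or the GC box GGGCGG; none of these 4 motifs overlapped another in these windows.
Gja1: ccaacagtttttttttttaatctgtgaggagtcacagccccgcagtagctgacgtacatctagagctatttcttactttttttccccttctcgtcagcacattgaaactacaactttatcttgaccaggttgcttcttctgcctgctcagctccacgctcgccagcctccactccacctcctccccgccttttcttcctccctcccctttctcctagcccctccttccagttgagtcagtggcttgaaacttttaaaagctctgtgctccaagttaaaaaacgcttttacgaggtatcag
Gjb6: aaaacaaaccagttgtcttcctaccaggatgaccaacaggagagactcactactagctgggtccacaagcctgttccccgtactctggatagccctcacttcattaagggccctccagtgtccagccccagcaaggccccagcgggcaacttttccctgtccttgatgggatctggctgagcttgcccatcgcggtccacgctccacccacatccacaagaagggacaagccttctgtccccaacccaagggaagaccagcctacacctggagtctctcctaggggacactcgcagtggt
Mlc1: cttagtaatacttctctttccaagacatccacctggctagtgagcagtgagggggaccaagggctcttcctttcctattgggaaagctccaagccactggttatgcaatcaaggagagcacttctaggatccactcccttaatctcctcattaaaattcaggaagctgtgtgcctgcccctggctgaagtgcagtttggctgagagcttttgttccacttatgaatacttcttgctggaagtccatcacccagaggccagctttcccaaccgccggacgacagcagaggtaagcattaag
Hepacam: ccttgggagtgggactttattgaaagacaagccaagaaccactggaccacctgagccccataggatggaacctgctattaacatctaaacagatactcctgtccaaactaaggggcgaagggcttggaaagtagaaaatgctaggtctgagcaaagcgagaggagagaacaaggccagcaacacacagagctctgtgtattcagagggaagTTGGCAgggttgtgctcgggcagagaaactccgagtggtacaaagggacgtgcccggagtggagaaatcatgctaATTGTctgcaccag
Gjd2: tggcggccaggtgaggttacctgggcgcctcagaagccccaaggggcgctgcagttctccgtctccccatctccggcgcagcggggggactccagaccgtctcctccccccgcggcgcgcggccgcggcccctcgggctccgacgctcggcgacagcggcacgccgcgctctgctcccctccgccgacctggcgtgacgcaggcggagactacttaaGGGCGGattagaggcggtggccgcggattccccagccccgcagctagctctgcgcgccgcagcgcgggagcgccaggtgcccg
Hepacam held a TTGGCA match beginning 39 bases before the start site (-39) and an ACAAT match at 36, and Gjd2 held a GC box at -33. The windows of Gja1, Gjb6 and Mlc1 held none of the 4 motifs. Among 32851 promoter windows of the same length, 14.12% held TTGGCA, 31.02% ACAAT, 13.62% TATAAA and 35.66% GGGCGG. The base composition differed as well, with 47.7% G and C in the Gja1 window, 49.7% in Mlc1, 50.7% in Hepacam and 57.3% in Gjb6, against 75.0% in Gjd2 and a median of 52.7% over all windows. This did not set Gjd2 apart from all members higher in astrocytes. The windows of Dag1 (75.3% and 69.7%) and Clcn2 (65.7%), not printed here, were also rich in G and C and held GC boxes. A match is a description of these letters and says nothing on binding.

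The first question was how far the members separated astrocytes from the other cell types. Of the 9, 8 were higher in astrocytes than in the mean of the other 5 cell types and 1, Gjd2, was not called, by edgeR's quasi-likelihood test at an adjusted p of at most 0.05, where 40.2% of the genes tested were called higher and 33.0% lower. Among them, Gja1, Gjb6, Aqp4, Mlc1 and Hepacam, had log2 fold changes between 6.37 and 8.25, and Dag1, Dtna and Clcn2 had log2 fold changes between 1.00 and 2.00. The median over the 9 members was 6.37, beside 0.08 over all genes tested. Without astrocyte replicate 1, which held the Ttr, the same count of 8 was called higher, as it was without any other single library.

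**Figure D1:**
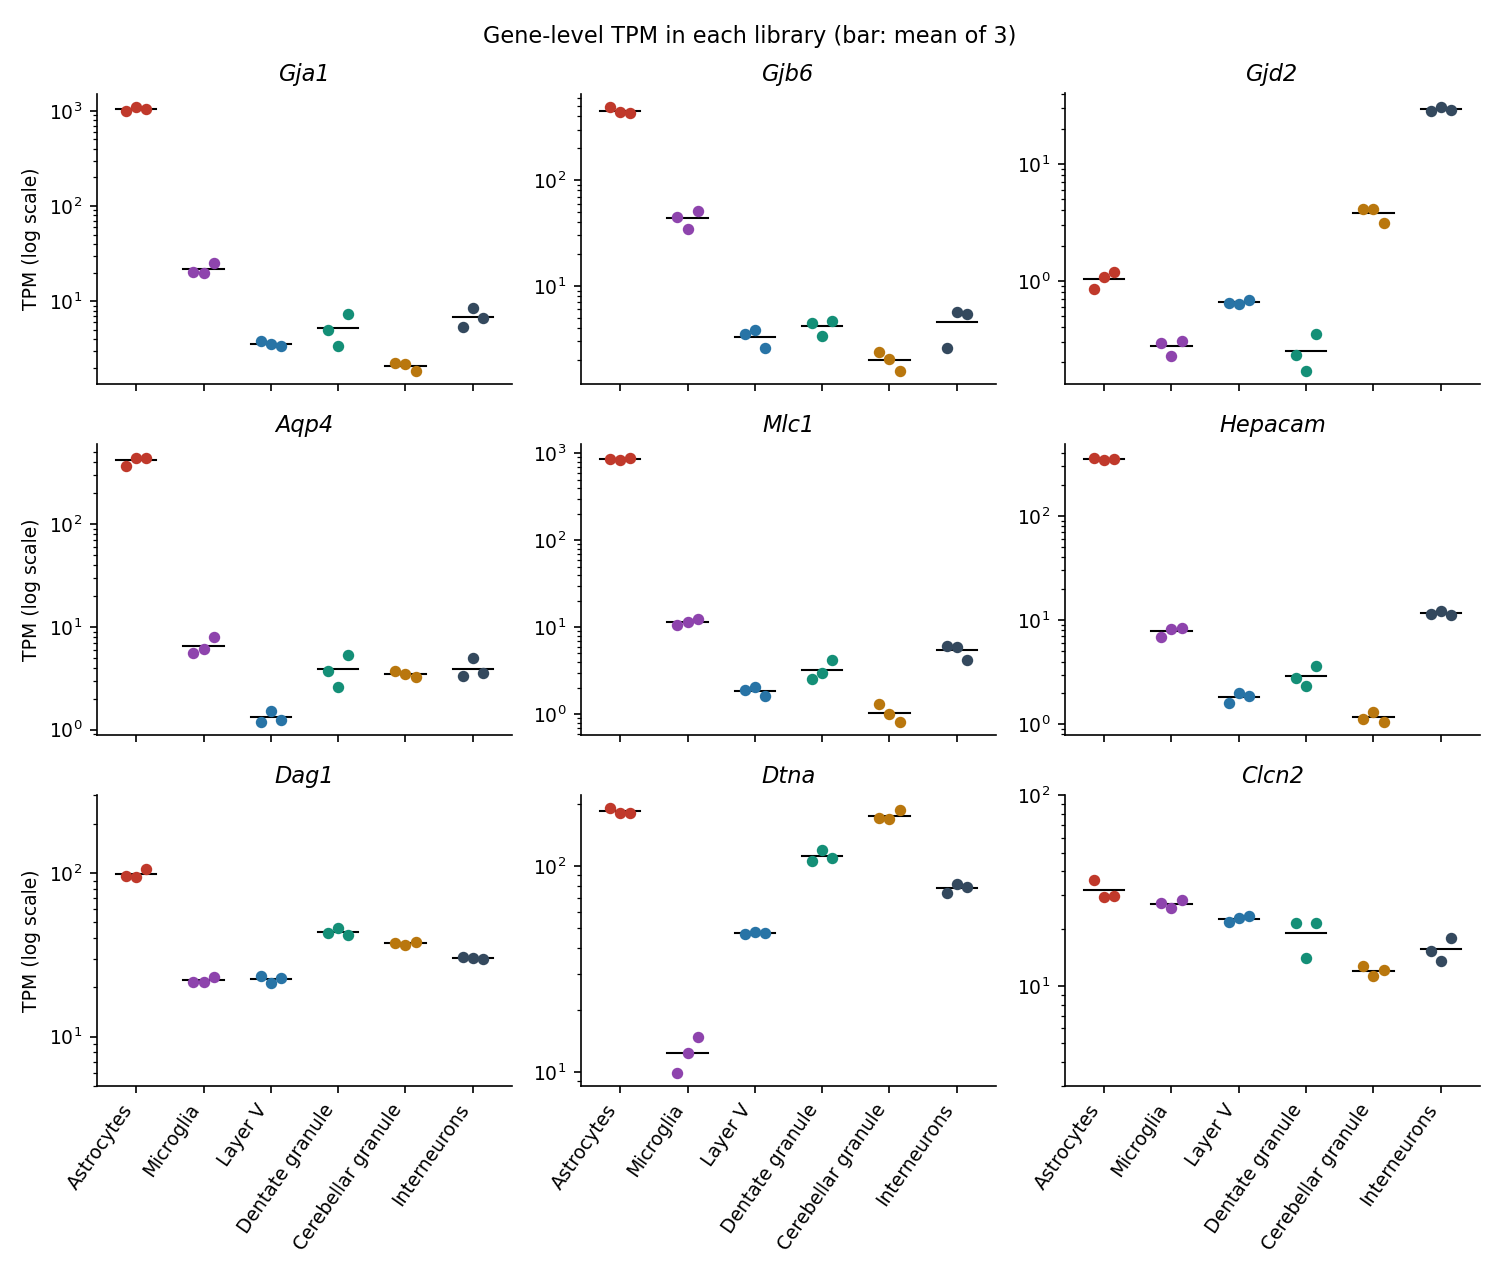
Level of each of the 9 genes in TPM (log axis, scale differing between panels) in the 18 libraries of 6 cell types; points are libraries and bars are means of 3. Gja1, Gjb6, Aqp4, Mlc1 and Hepacam stood highest in astrocytes by 10.4- to 74.6-fold, Dtna was similar in astrocytes and cerebellar granule cells, and Gjd2 was highest in interneurons.

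Gja1 encodes connexin 43, the main connexin of astrocytes. It was at 1003, 1104 and 1054 TPM in the 3 astrocyte libraries. It was at 20.5, 19.9 and 25.2 TPM in microglia and at 1.86 to 8.55 TPM in the 12 neuronal libraries. No library of another cell type came near the astrocyte range, and the mean astrocyte level was 48.1-fold that of microglia, the next cell type. The log2 fold change against the other 5 cell types was 7.74 ± 0.11 (SE, edgeR adjusted p = 2.06e-20). Below astrocytes, microglia exceeded interneurons (log2 difference 1.98 ± 0.18, edgeR adjusted p = 8.56e-09). Interneurons (6.90 TPM) and dentate gyrus granule cells (5.26 TPM) did not differ by the test (edgeR adjusted p = 0.21), nor did dentate gyrus granule cells and layer V neurons (3.61 TPM, edgeR adjusted p = 0.14), and cerebellar granule cells were lowest at 2.10 TPM. The dentate gyrus libraries spread most (5.00, 3.40 and 7.37 TPM): without replicate 2 the difference from layer V neurons was called (edgeR adjusted p = 0.0053), and without replicate 3 that from interneurons was (edgeR adjusted p = 0.013).

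Gjb6 encodes connexin 30, the second abundant connexin of astrocytes. Its level was 494, 441 and 428 TPM in astrocytes and 45.1, 34.8 and 50.6 TPM in microglia. The neuronal libraries lay between 1.57 and 5.68 TPM. Astrocytes were again above every other library, yet the distance to microglia was 10.4-fold in TPM and 3.27 ± 0.12 on the log2 scale (edgeR adjusted p = 2.51e-14), the smallest distance to the next cell type among the 5 members with the largest astrocyte changes. The log2 fold change against the other 5 cell types was 6.37 ± 0.08 (edgeR adjusted p = 2.47e-21). Interneurons, dentate gyrus granule cells and layer V neurons, at 4.55, 4.14 and 3.32 TPM, were not separated from their neighbors in this order by the test.

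The balance of the 2 astrocyte connexins differed between astrocytes and microglia. The ratio of Gja1 to Gjb6 TPM was 2.33 ± 0.26 (SD, n = 3) in astrocytes, with a range of 2.03 to 2.50, and 0.509 ± 0.060 (SD, n = 3) in microglia, with a range of 0.455 to 0.573. The ranges did not overlap, with a log2 difference of 2.20 and an exact two-sided permutation p of 0.10, the smallest that 3 libraries against 3 allow. A short noncoding Gjb6 transcript of 201 bases, Gjb6-203, took 35.4% of the gene's TPM but 1.74% of its estimated counts in astrocytes, so the gene's TPM leaned on it. With protein-coding transcripts only, the ratio was 3.72 ± 0.49 (SD, n = 3) in astrocytes and 1.02 ± 0.19 (SD, n = 3) in microglia, and the ranges again did not overlap. Over all its transcripts, Gjb6 in microglia was at 9.57% of its astrocyte mean, above the means of all 8 astrocyte markers, which lay between 1.31% and 7.32% there. Protein-coding transcripts made up 62.7% of the gene's TPM in astrocytes and 49.8% in microglia. For these transcripts alone the percentage would be lower, and it was not set beside the markers. Endothelial and mural markers were also highest in the microglia libraries, and their part in this level was not tested.

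Aqp4 encodes aquaporin-4, the water channel of the endfoot membrane. It was at 371, 443 and 435 TPM in astrocytes. Microglia were next at 5.61, 6.15 and 7.99 TPM, and the neuronal libraries were between 1.19 and 5.35 TPM. The astrocyte level was 63.2-fold that of microglia, and no range overlapped it. The log2 fold change against the other 5 cell types was 7.17 ± 0.12 (edgeR adjusted p = 1.89e-19). Interneurons, dentate gyrus granule cells and cerebellar granule cells had 3.93, 3.88 and 3.48 TPM and did not differ between neighbors in the order by the test, while layer V neurons were lower than all 3 at 1.32 TPM. A pair of transcripts carried most of the gene in astrocytes, Aqp4-212 with 65.0% of the TPM and Aqp4-201, which encodes 323 residues, with 31.3%.

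Mlc1 encodes the membrane protein that is mutated in megalencephalic leukoencephalopathy with subcortical cysts. It had the largest log2 fold change of the 9 members, 8.25 ± 0.09 (edgeR adjusted p = 1.32e-21). The astrocyte libraries were at 860, 842 and 897 TPM and the microglia libraries at 10.8, 11.6 and 12.4 TPM, a 74.6-fold distance. Neuronal libraries held 0.819 to 6.02 TPM. Every neighboring pair in the order astrocytes, microglia, interneurons, dentate gyrus granule cells, layer V neurons and cerebellar granule cells differed by the test, with an adjusted p (edgeR) of at most 0.011. The step from dentate gyrus granule cells to layer V neurons (3.22 and 1.85 TPM) was lost without dentate gyrus replicate 3 (edgeR adjusted p = 0.11) or layer V replicate 3 (edgeR adjusted p = 0.054). In batch 2, with 1 dentate gyrus library against 3 interneuron libraries, dentate gyrus granule cells minus interneurons was -0.42 on the log2 scale (edgeR adjusted p = 0.093), against -0.70 in the 18 libraries. Layer V minus cerebellar granule cells, with 1 library each, was 0.57, against 0.96.

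Hepacam encodes GlialCAM, the adhesion protein that brings MLC1 to cell contacts. It was at 364, 342 and 355 TPM in astrocytes, and the log2 fold change was 6.87 ± 0.06 (edgeR adjusted p = 1.20e-22). Unlike the 4 members above, its next cell type was not microglia but interneurons, with 11.4, 12.2 and 11.3 TPM, against 6.93, 8.15 and 8.36 TPM in microglia. The 2 ranges did not overlap, and the log2 difference was 0.32 ± 0.10 (edgeR adjusted p = 0.0074). In interneurons Hepacam stood at 3.29% of its astrocyte mean, above the 8 astrocyte markers, which lay between 0.411% and 2.35% there. The 5 oligodendrocyte markers were also highest in these libraries, and their part in the Hepacam level was not tested.

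Dag1 encodes dystroglycan, the laminin receptor of the complex. It was at 96.6, 95.2 and 106 TPM in astrocytes and at 42.8, 46.3 and 41.9 TPM in dentate gyrus granule cells, the next cell type, a 2.27-fold distance. All other libraries lay between 21.3 and 37.8 TPM. Dystroglycan mRNA was thus abundant in neurons and microglia too, with astrocytes above every library. The log2 fold change against the other 5 cell types was 1.97 ± 0.05 (edgeR adjusted p = 3.36e-17). Layer V neurons, at 22.5 TPM, and microglia, at 22.1 TPM, did not differ by the test (edgeR adjusted p = 0.84).

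Dtna encodes alpha-dystrobrevin, a scaffold of the complex. Its TPM did not separate astrocytes from all neurons: the astrocyte libraries were at 190, 180 and 181 TPM and the cerebellar granule cell libraries at 171, 168 and 186 TPM. These ranges overlapped. By counts, astrocytes were higher than cerebellar granule cells with a log2 difference of 0.61 ± 0.07 (edgeR adjusted p = 2.64e-07). The median over all genes tested was 0.37 for this pair. With limma on log2(TPM + 0.5) the difference for Dtna was 0.07 (adjusted p = 0.53), so the call depended on the scale. A short transcript of 359 bases, Dtna-208, took 28.3% of the gene's TPM in cerebellar granule cells and 7.39% in astrocytes. The TPM of the 2 cell types thus leaned on it unequally, and they were not compared without it. In batch 2, which held 1 library of each of these cell types, the difference by counts was 0.28, a value with no replicate check. Dentate gyrus granule cells had 105, 120 and 109 TPM, interneurons 74.1, 81.9 and 79.1 TPM, layer V neurons 46.8, 47.6 and 47.1 TPM, and microglia 9.94, 12.4 and 14.8 TPM. Each step of this descending order was called (edgeR adjusted p of at most 3.10e-05), and microglia were lowest. Against the mean of the other 5 cell types the log2 fold change was 2.00 ± 0.05 (edgeR adjusted p = 5.21e-17).

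Clcn2 encodes the chloride channel ClC-2, which GlialCAM binds. It had the narrowest spread over cell types. Astrocyte libraries held 36.1, 29.3 and 29.7 TPM, microglia 27.1, 25.7 and 28.2 TPM and layer V neurons 21.6, 22.7 and 23.4 TPM. Dentate gyrus granule cells, at 21.3, 14.1 and 21.4 TPM, and interneurons, at 15.3, 13.5 and 17.9 TPM, overlapped, and cerebellar granule cells were lowest at 12.7, 11.3 and 12.1 TPM. Astrocytes were above every other library but only slightly, and the log2 fold change against the other 5 cell types was 1.00 ± 0.08 (edgeR adjusted p = 1.62e-09). Against microglia the log2 difference was 0.50 ± 0.11 (edgeR adjusted p = 0.00045), which with limma on log2(TPM + 0.5) was 0.22 (adjusted p = 0.15). Clcn2 overlaps the genes Fam131a (85 bases) and Polr2h (82 bases) on the opposite strand, and the strand setting of the quantification is not given in the sources used here.

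Gjd2 encodes connexin 36, the connexin of electrical synapses. It was highest in interneurons, at 28.2, 30.9 and 29.2 TPM. Cerebellar granule cells were next with 4.12, 4.13 and 3.11 TPM, and the astrocyte libraries held 0.844, 1.09 and 1.18 TPM. Layer V neurons had 0.635 to 0.684 TPM, and microglia and dentate gyrus granule cells had 0.169 to 0.349 TPM, with a mean of 26.3 and 16.0 counts per library. The interneuron libraries were above all others, 7.78-fold over cerebellar granule cells (log2 difference 2.83 ± 0.15, edgeR adjusted p = 6.29e-12). Cerebellar granule cells exceeded astrocytes (1.61 ± 0.16, edgeR adjusted p = 2.90e-08) and astrocytes exceeded layer V neurons (0.74 ± 0.18, edgeR adjusted p = 0.0010). The 5 interneuron markers summed to 80.3 to 122 TPM in astrocytes, 28.5 to 32.4 TPM in layer V neurons and 3296 to 3464 TPM in interneurons. The part of interneuron RNA in the astrocyte Gjd2 level was not tested. Microglia and dentate gyrus granule cells overlapped and did not differ by the test (edgeR adjusted p = 0.24).

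The comparison of astrocytes with the mean of the other 5 cell types therefore averaged very unequal Gjd2 levels. It gave a log2 fold change of -0.21 ± 0.14 (edgeR adjusted p = 0.18). Within batch 1, which held no interneurons or microglia, the value turned to 0.54 (edgeR adjusted p = 0.010), and leaving out astrocyte replicate 3, dentate gyrus granule cell replicate 2 or cerebellar granule cell replicate 3 made it a call in the other direction, at -0.43, -0.31 and -0.29. Gjd2 overlaps the noncoding gene A530058N18Rik by 18 to 57 bases on the opposite strand, and that gene was also highest in interneurons, at 22.9 TPM against 0.719 to 1.43 TPM elsewhere.

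**Figure D2:**
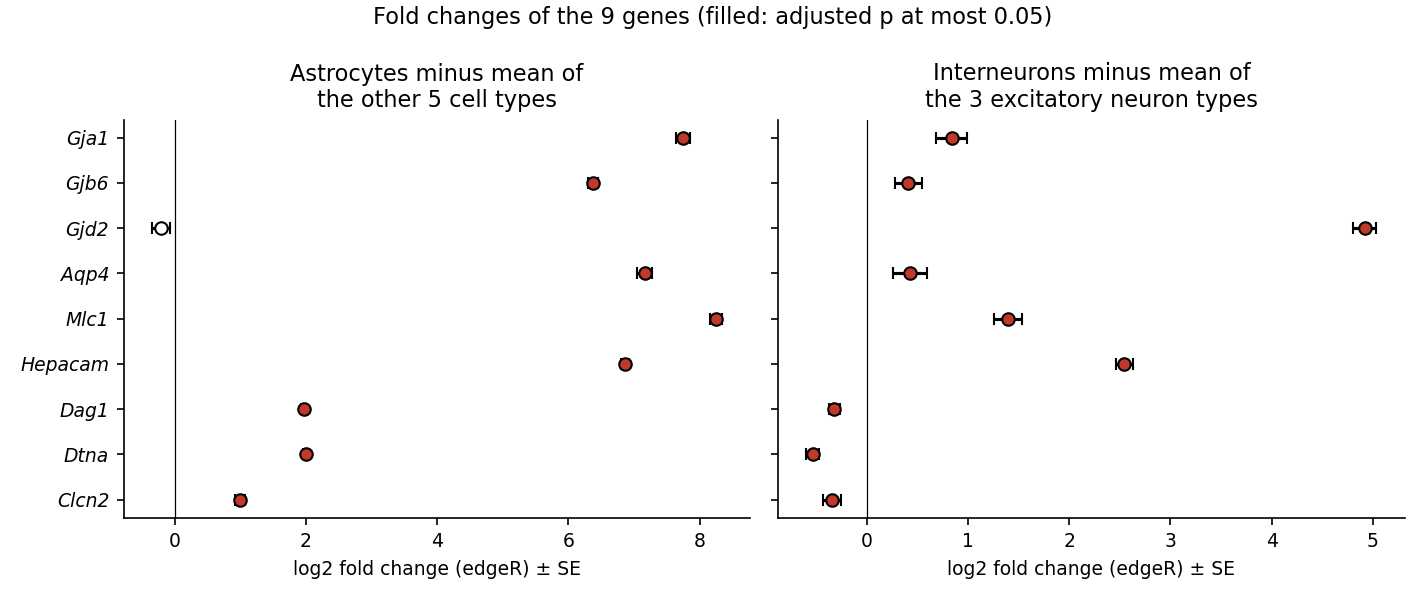
Log2 fold changes (x axis) of the 9 genes in 2 comparisons, with SE bars from edgeR; filled points passed an adjusted p of 0.05. Only Gjd2, at -0.21, was not called in the astrocyte comparison on the left, and it had the largest change, 4.92, in the interneuron comparison on the right.

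Inhibitory interneurons were next compared with the mean of the 3 excitatory neuron types. All 9 members were called, 6 higher and 3 lower, where 36.0% of all genes tested were called higher and 28.4% lower (edgeR). Gjd2 rose most, by a log2 fold change of 4.92 ± 0.11 (edgeR adjusted p = 1.50e-16), followed by Hepacam with 2.54 ± 0.08 (edgeR adjusted p = 1.58e-14), Mlc1 with 1.39 ± 0.13 (edgeR adjusted p = 5.09e-08) and Gja1 with 0.84 ± 0.15 (edgeR adjusted p = 0.00011). The rise of Aqp4 was 0.43 ± 0.17 (edgeR adjusted p = 0.037) and that of Gjb6 0.41 ± 0.13 (edgeR adjusted p = 0.012). Without interneuron replicate 2 both were no longer called, at 0.26 (edgeR adjusted p = 0.28) and 0.34 (edgeR adjusted p = 0.076). Gjb6 also missed the threshold without interneuron replicate 3 (0.35, edgeR adjusted p = 0.060), and Aqp4 without any 1 of dentate gyrus replicate 1, layer V replicates 1 and 3 and cerebellar replicates 2 and 3 (0.41 to 0.42, edgeR adjusted p from 0.050 to 0.060). Dtna fell by 0.54 on the log2 scale, Clcn2 by 0.35 and Dag1 by 0.32. The summed astrocyte markers were at 220 to 256 TPM in interneurons, 209 to 221 TPM in layer V neurons, 150 to 185 TPM in cerebellar granule cells and 61.2 to 136 TPM in dentate gyrus granule cells, and their part in the 5 smaller rises was not tested. Batch and this comparison cannot be told apart in the 18 libraries. Batch 2 held 3 interneuron libraries and 1 library of each excitatory type, whose spread was taken from the cell types with 3 libraries. There all 9 members kept their direction, with log2 fold changes of 0.24 for Aqp4 and 0.37 for Gjb6, which were not called (edgeR adjusted p = 0.24 and 0.12).

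Pairwise, astrocytes exceeded microglia, layer V neurons and dentate gyrus granule cells for all 9 members (39.8%, 39.0% and 38.2% of all genes tested were called higher, edgeR), and exceeded cerebellar granule cells and interneurons for 8 of 9 (47.6% and 38.1%), with Gjd2 lower in both (35.1% called lower in each). Over the 15 pairs of cell types, 120 of 135 comparisons of a member were called, beside 75.1% of all comparisons of a gene tested.

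The levels outside astrocytes were then set beside those of the 8 astrocyte markers, each as a percentage of its own astrocyte mean. In layer V neurons, Gja1, Gjb6, Aqp4, Mlc1 and Hepacam were at 0.342%, 0.730%, 0.317%, 0.214% and 0.516%, and the markers had a median of 0.713% with a range of 0.203% to 12.1%. In cerebellar granule cells, the 5 members were at 0.121% to 0.836% and the markers at 0.186% to 1.95%, so Mlc1, at 0.121%, lay below the lowest marker. In dentate gyrus granule cells, the 5 members were at 0.372% to 0.933% and the markers at 0.296% to 2.84%. These members thus sat mostly within the span of the markers in the excitatory neurons. By means they lay above it only for Gjb6 in microglia, where its libraries overlapped those of Gfap, and for Hepacam in interneurons. Dag1, Dtna, Clcn2 and Gjd2 lay above the highest marker in the 3 excitatory neuron types and interneurons. In microglia, Dag1 at 22.3%, Clcn2 at 85.1% and Gjd2 at 26.6% lay above the highest marker, Gfap at 7.32%, and Dtna lay below it at 6.73%. The Gjd2 percentages divide by an astrocyte mean of only 1.04 TPM. In microglia and dentate gyrus granule cells Gjd2 was at 0.276 and 0.250 TPM, with a mean of 26.3 and 16.0 counts, so these percentages say little.

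**Figure D3:**
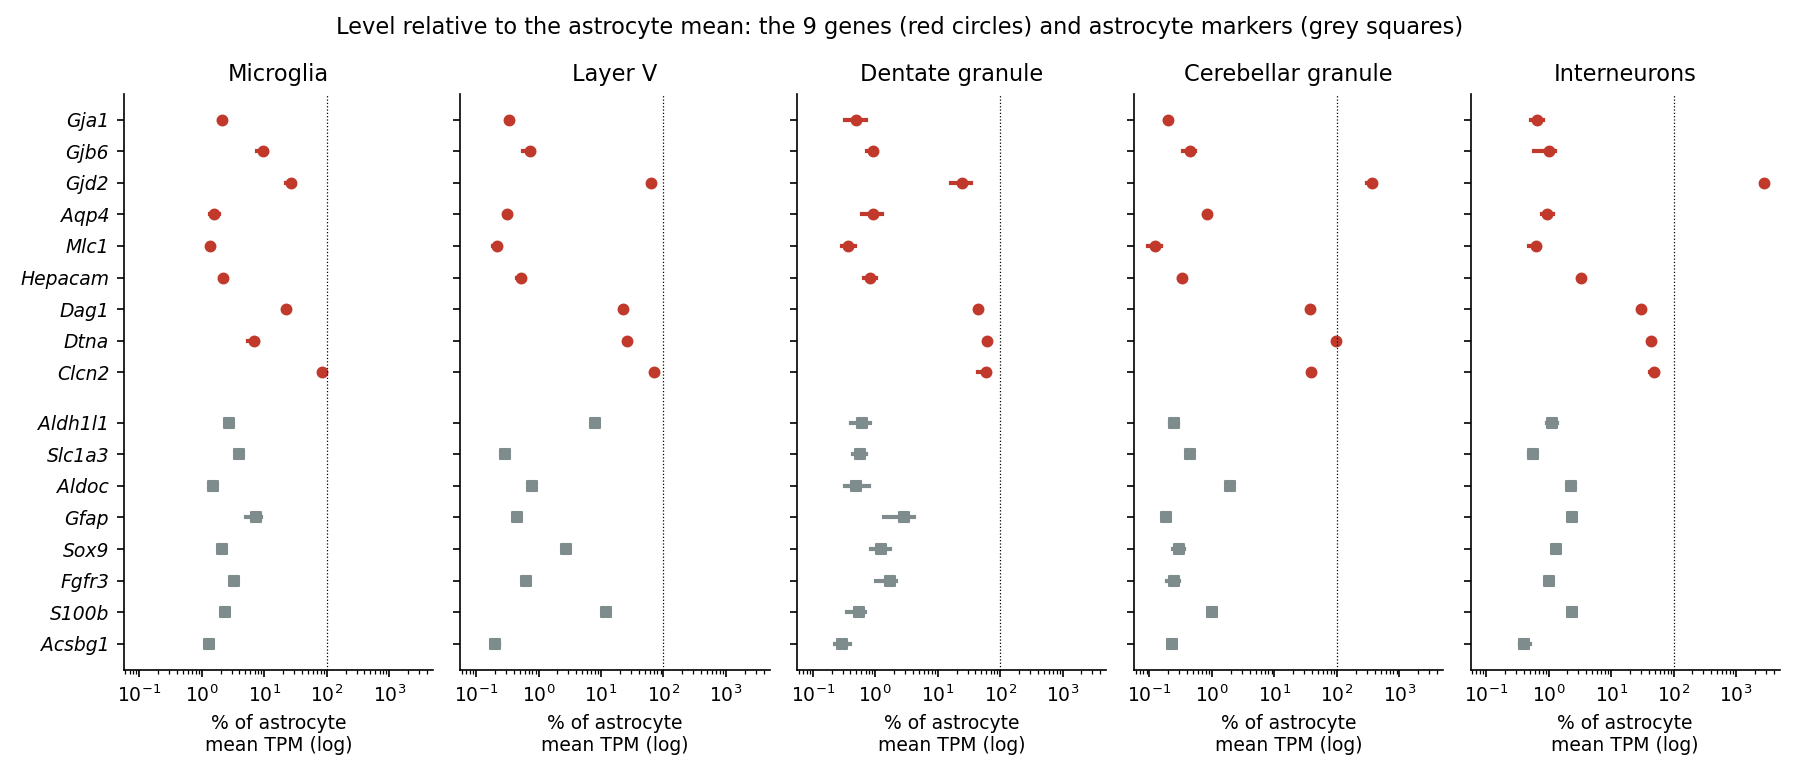
Level of the 9 genes (red circles) and of 8 astrocyte markers (grey squares) in each other cell type, as a percentage of the gene's mean TPM in astrocytes (log x axis); points are means of 3 libraries and lines run from the lowest to the highest library. Dag1, Dtna and Clcn2 lay at 22.3% or more outside astrocytes, except Dtna in microglia at 6.73%, and Gjd2 in interneurons lay at 2835%.

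Across the 18 libraries, which share their cell-type structure, log2 CPM (counts scaled by library size) of the 5 astrocyte-high members ran closely together, with Pearson r between 0.916 (Gjb6 with Aqp4 and with Hepacam) and 0.996 (Gja1 with Mlc1). Dag1 followed them at 0.721 to 0.913 and Clcn2 at 0.640 to 0.812. Dtna had r of 0.0858 to 0.458 with these 5 and 0.740 with Dag1, and Gjd2 had r between -0.523 and 0.200 with the other 8. Among all genes tested, those with the most similar pattern (18 libraries) included Plpp3, Tlcd1 and Gli3 for Gja1 (r of 0.997, 0.996 and 0.996), S1pr1 and Oaf for Gjb6 (0.997 and 0.996), Glud1, Entpd2 and Aldh6a1 for Aqp4 (0.995, 0.993 and 0.991), Adhfe1, Plpp3 and Rlbp1 for Mlc1 (0.998, 0.998 and 0.996) and Kcnj10, Cdh19 and Rftn2 for Hepacam (0.997, 0.997 and 0.997). Gjd2 was most like Btbd11, Erbb4 and Minar1 (0.988, 0.980 and 0.977), Dag1 like Nadk2, Bmpr1a and Tank (0.987, 0.980 and 0.974), Dtna like Slitrk2, Arhgef12 and Gpr19 (0.987, 0.987 and 0.984), and Clcn2 like Rmst, Cchcr1 and Ppp2r5a (0.978, 0.964 and 0.961).

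The transcripts of several members differed between cell types. Shares are given where the gene's mean level was at least 10 TPM, except for Gjb6 in neurons, as a percentage of the gene's TPM. For Dtna, the transcript Dtna-202, which encodes 682 residues, held 51.2% ± 2.7 (SD, n = 3) in astrocytes but 15.7% in layer V neurons and 26.0% in interneurons. The longest form, Dtna-203 with 746 residues, held 16.4% in astrocytes and at most 2.51% in any other cell type. Dtna-206, a shorter form of 567 residues, held 4.94% in astrocytes, 53.8% in layer V neurons, 42.3% in interneurons and near a common level in the granule cells of the cerebellum (22.7%) and dentate gyrus (22.1%). Astrocytes and layer V neurons thus differed in their leading alpha-dystrobrevin form. Dtna-208 and Dtna-209, with incomplete coding sequences, held the next shares, up to 28.3% (cerebellar granule cells) and 20.9% (microglia).

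For Clcn2, the full-length Clcn2-201 (908 residues) held 72.7% in astrocytes, 83.5% in layer V neurons and 31.8% ± 0.4 (SD, n = 3) in microglia, where the retained-intron transcripts Clcn2-207 and Clcn2-209 held 28.9% and 20.4%. In TPM, protein-coding Clcn2 was at 23.0 ± 1.2 (SD, n = 3) in astrocytes and 8.60 ± 0.34 (SD, n = 3) in microglia. With protein-coding transcripts only, Clcn2 in microglia was lower than in layer V neurons by a log2 difference of -1.04 (edgeR adjusted p = 8.49e-11), where all transcripts gave -0.04 (edgeR adjusted p = 0.72), and it no longer differed from the other 3 neuron types by the test. Retained-intron transcripts of all genes together took 4.47% to 4.95% of TPM in microglia and 2.42% to 3.04% in the other libraries, so microglia were high in this class as a whole.

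For Gjb6, the retained-intron Gjb6-204 held 1.96% in astrocytes, 29.1% in microglia and 27.7% to 39.8% in the 4 neuron types, where the whole gene was at 2.00 to 4.55 TPM. At these low levels the neuronal shares varied between libraries, with an SD of 4.31 percentage points in layer V neurons and 24.4 in cerebellar granule cells. Dag1-204, whose coding sequence of 893 residues is as long as that of Dag1-201 and Dag1-203, held 91.4% in layer V neurons, 88.8% in microglia and 67.2% to 76.9% in the other 4 cell types. Gja1, Mlc1, and Hepacam were carried by 1 transcript each in astrocytes, with 99.3%, 95.5% and 94.9%, and Gjd2 had a single transcript. When the batch 2 library replaced its batch 1 partner, 3 of 54 shares in the 4 cell types with such a pair, for genes at 10 TPM or more there, moved by more than the SD between replicates, and the largest move was 2.31 percentage points.

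**Figure D4:**
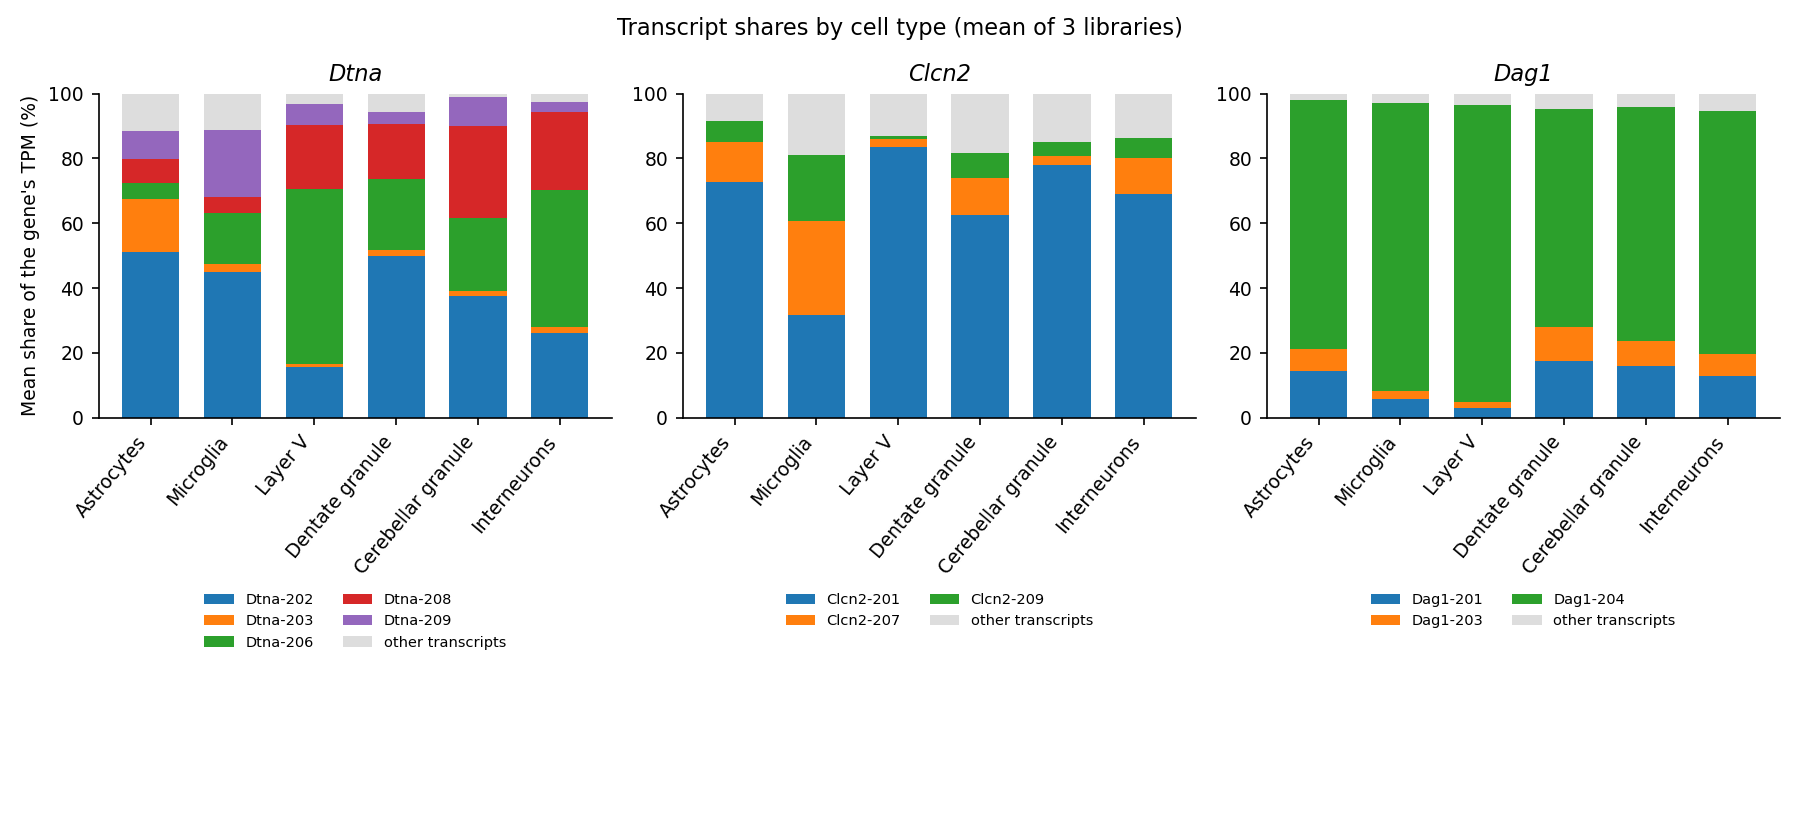
Mean share (% of the gene's TPM, 3 libraries per cell type) of the named transcripts of Dtna, Clcn2 and Dag1, stacked to 100% with all other transcripts in light grey. Dtna-203 reached 16.4% in astrocytes only, Dtna-206 led in layer V neurons with 53.8%, and Clcn2-201 fell to 31.8% in microglia.

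The wider families were described from lists of related genes, by counts and medians and with no test of a list. Of 22 connexins, pannexins and junction scaffold genes, 16 were tested. In astrocytes against the mean of the other 5 cell types, 8 were called higher and 2 lower (edgeR), beside 40.2% and 33.0% of all genes tested, and the median log2 fold change was 0.33, beside 0.08 over all genes tested. Gjb2, encoding connexin 26, rose by 5.00 ± 0.15 (edgeR adjusted p = 1.24e-15) but was nearly as high in microglia, with 17.9 TPM, as in astrocytes, with 19.5 TPM. Tjp1, which encodes the scaffold ZO-1, rose by 2.12 ± 0.07 and was at 82.9 TPM in astrocytes and 129 TPM in microglia. Panx2, a pannexin, fell by 1.51 on the log2 scale and had the highest level of the list in all 4 neuron types, 62.0 to 98.9 TPM. The oligodendrocyte connexins Gjb1 and Gjc3 were highest in interneurons, at 13.3 and 17.0 TPM, in the libraries where oligodendrocyte markers were highest.

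Of the 15 genes of the dystrophin complex, 11 were higher and 4 lower, beside 40.2% and 33.0% of all genes tested, with a median of 0.94. Sspn, encoding sarcospan, rose by 4.24 ± 0.06 (19.0 TPM in astrocytes, at most 2.56 TPM elsewhere), and Sntb1, a syntrophin, by 3.17 ± 0.08, though interneurons held more of it (6.86 against 4.87 TPM). Nos1, encoding neuronal nitric oxide synthase, fell by 2.55 and was highest in cerebellar granule cells, at 50.6 TPM. Dtnb, the paralog of Dtna, was at 27.4 TPM in astrocytes and 78.0 to 96.5 TPM in layer V neurons, interneurons and dentate gyrus granule cells. Of 13 enzymes that glycosylate dystroglycan, 5 were higher, 4 lower and 4 not called, shares near those of all genes tested (40.2% higher and 33.0% lower), with a median of 0.12. Pomt2 and Pomt1, which start the sugar chain, rose by 1.91 ± 0.05 and 1.53 ± 0.05. B4gat1, which extends the chain, was the most abundant of the list in every cell type and was not called (-0.01 ± 0.04, edgeR adjusted p = 0.77).

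Of 16 dystroglycan ligands, 14 were higher and 1 lower in astrocytes, beside 40.2% and 33.0% of all genes tested, with a median of 1.39. The laminin chains Lamb2 and Lama2 rose by 4.91 ± 0.15 and 3.65 ± 0.07, and the basement membrane protein Nid2 by 3.45 ± 0.14. Lama2 was highest in astrocytes, at 9.70 TPM against 3.64 TPM in microglia, but Lamb2 was similar in both (39.9 and 37.8 TPM), and Nid2 and Lama4 were higher in microglia (19.1 against 5.13 TPM and 212 against 36.0 TPM). The endothelial markers were highest in those microglia libraries as well, and their part in the laminin levels was not tested.

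Of 12 genes of endfoot water and ion transport, 11 were higher and 1, Slc12a2, lower, beside 40.2% and 33.0% of all genes tested, with a median of 5.44. Kcnj16 and Kcnj10, which encode the potassium channels Kir5.1 and Kir4.1, rose by 7.58 ± 0.08 and 7.21 ± 0.09, and Slc1a3, a glutamate transporter, by 7.45 ± 0.08. Kcnj10 was at 555 TPM in astrocytes and, like Hepacam, was next highest in interneurons, at 15.2 TPM against 10.3 TPM in microglia. The most abundant gene was Slc1a2, the main astrocyte glutamate transporter, with 3299 TPM in astrocytes, and Atp1b2, a sodium pump subunit, led in the 4 neuron types, with 1172 TPM in cerebellar granule cells.

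Among 17 partners of MLC1 and GlialCAM and other chloride channels, 10 were higher and 3 lower, beside 40.2% and 33.0% of all genes tested, with a median of 0.49. Gpr37l1 and Gpr37, orphan receptors, rose by 8.08 ± 0.09 and 3.36 ± 0.06, and Ttyh1, of the tweety family, by 4.90 ± 0.05. Gpr37l1 was at 1195 TPM in astrocytes and at most 13.8 TPM elsewhere, whereas Gpr37 was at 31.8 TPM in astrocytes and 21.0 TPM in interneurons. No other ClC gene of the list reached the log2 fold change of Clcn2, 1.00: Clcn3 and Clcn4, which encode intracellular chloride and proton exchangers, rose by 0.89 ± 0.03 and 0.49 ± 0.04 and had higher levels in cerebellar granule cells (133 and 138 TPM) than in astrocytes (111 and 112 TPM), and Ttyh3 rose by 1.60 ± 0.04.

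**Figure D5:**
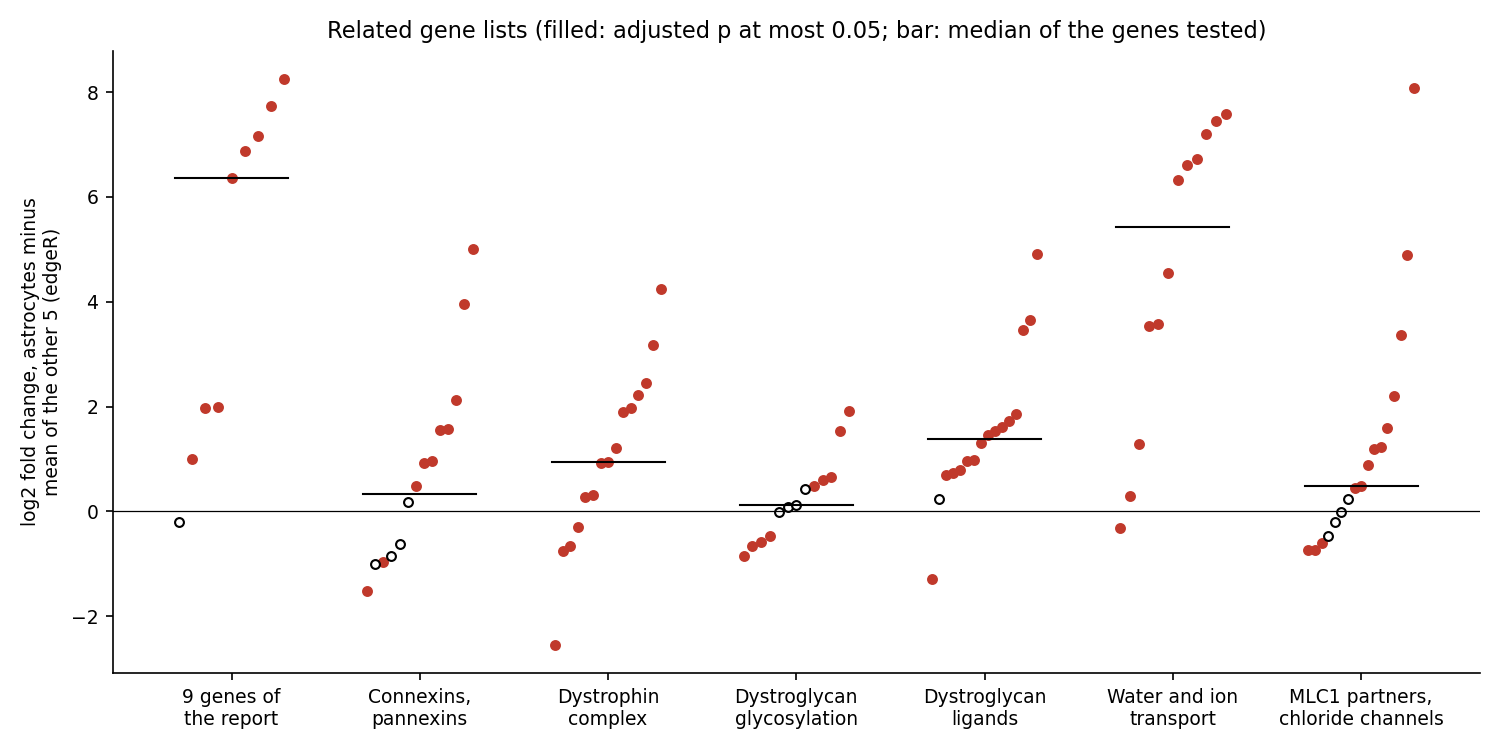
Log2 fold change in astrocytes against the mean of the other 5 cell types (y axis, edgeR) for the tested genes of each list; filled points passed an adjusted p of 0.05, bars are list medians, and 2 genes of the connexin list with a standard error above 2 are not drawn. Water and ion transport genes had a median of 5.44, and the other related lists had medians of 0.12 to 1.39.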

How the data were processed

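Ribosome-bound polyA RNA was sequenced from 22 libraries. Per the labels and methods, the authors used cutadapt 3.5 for trimming and kallisto 0.46.2 for quantification against GENCODE M24 (GRCm38). They deposited estimated counts, not normalized, and TPM per transcript for each library, and their differential test, sleuth, was not run here. Counts and TPM were summed per gene, and counts were rounded to whole numbers. Of the symbols, 109 belonged to several gene identifiers, and for these the identifier with the most counts was used. The 18 main libraries held 38270477 to 71440915 estimated counts, and kallisto splits reads between similar transcripts, so shares of overlapping transcripts are estimates.

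edgeR 4.0.16 (quasi-likelihood, TMM, filterByExpr) in R 4.3.3 fitted all 6 cell types in 1 model, and p-values were adjusted by the Benjamini-Hochberg method over 20524 genes, with calls at 0.05. Standard errors were derived from the F statistic. DESeq2 1.42.0 and limma 3.58.1 on log2(TPM + 0.5) were alternatives, with other filters, transcript classes, batches, a replicate block and each library left out. Other steps used Python 3.11.15, numpy 2.4.6, scipy 1.17.1, pandas 2.3.3 and matplotlib 3.10.9. Transcript lengths came from the deposited quantification, and coding sequences from GENCODE M21. On simulated data with 19484 genes, the astrocyte comparison recovered 69 of 100 genes changed by 1 on the log2 scale and 95 of 100 changed by 2, with 8 false calls. Only those genes were changed, in astrocytes, and the 6 simulated cell types were otherwise alike. In the data 40.2% of the genes tested were called higher and 33.0% lower, so these rates need not hold there.

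The 9 members and the related lists were chosen with earlier results of these data known. Named from each related list were the 3 called genes with the largest astrocyte change and the gene with the highest level in any cell type, and for each member the 3 most similar genes by Pearson r of log2(CPM + 0.5). Some genes that this rule selects are not reported here. Gjb1, Gjc3, Slc12a2 and the levels of marker genes outside the rule were named after their values were seen.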

Additional observations from a re-analysis of the deposited data

How the results depend on the processing

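Of the 9 members, 8 were called higher in astrocytes under every setting that held all 6 cell types, and 9 within batch 1, where the 3 excitatory neuron types were the comparison. Log2 fold changes over all 28 alternatives ran from 6.20 to 9.14 for Gja1, Gjb6, Aqp4, Mlc1 and Hepacam, from 1.39 to 2.04 for Dtna and Dag1, and from 0.76 to 1.18 for Clcn2. Gjd2 was the exception: it was -0.67 with limma on log2(TPM + 0.5) (adjusted p = 1.2e-05), -0.28 with 22 libraries and batch as a covariate (edgeR adjusted p = 0.035), 0.54 within batch 1 (edgeR adjusted p = 0.010), and -0.43 to -0.11 with single libraries left out. Accordingly, 1 member was called lower with limma and with batch as a covariate, and 0 to 1 with single libraries left out. The batch 1 value is another comparison, since interneurons and microglia were absent and only the 3 excitatory neuron types remained. In the 18 libraries, Gjd2 in astrocytes was 0.74 against layer V neurons, 2.31 against dentate gyrus granule cells and -1.61 against cerebellar granule cells (log2). The cause of the shifts between settings was not tested.

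Within batch 1, 50 of 54 pairwise comparisons of a member were called, with 0 calls lost or gained in those pairs, against 120 of 135 in all. Left-out libraries gave 117 to 121 pairwise calls. With limma, 6 connexin list genes, 2 dystroglycan ligands and 5 chloride channel list genes were called lower, and batch as a covariate gave 5 of the last. Within batch 1, 0 water and ion transport genes were lower. With single libraries left out, 2 to 4 connexin list genes and 3 to 5 chloride channel list genes were called lower. In the interneuron comparison, Aqp4 was not called with batch as a covariate (0.26, edgeR adjusted p = 0.24), nor was Clcn2 with limma (-0.15, adjusted p = 0.27).

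Replicate numbers are shared by the groups in the labels but were not treated as pairing the libraries, since not every same-numbered pair correlated above 0.1: the median correlation of deviations was 0.082 over 45 same-numbered pairs, with 15 above 0.1, and -0.032 over 90 other pairs, with 6 above 0.1. With the replicate number as a block, 8 members were called higher, Gjd2 was at -0.21 (edgeR adjusted p = 0.21) and 0 pairwise calls changed. Gjd2 in microglia and dentate gyrus granule cells rested on few counts, and with 3 libraries per group no single-ratio permutation test could fall below 0.10.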
